A study of Mus musculus with 15 samples.

Results

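The genes described here build the autophagosome or carry cargo into it. They are 10 genes of the mouse liver transcriptome, taken by their symbol from the deposited count and FPKM tables: the ATG8 family genes Gabarap, Gabarapl1, Gabarapl2, Map1lc3a and Map1lc3b, the early autophagy genes Ulk1 and Wipi1, and the cargo receptor genes Sqstm1, Bnip3 and Fam134b. Each symbol matched 1 of the 35275 genes listed, and all 10 were among the 13837 genes tested. Liver messenger RNA (left lateral lobe) was sequenced from C57BL/6 mice that were 3 months old at the start and 6 months old at the end of the study. EOD mice fasted for 24 h every other day, IF16 mice fasted for 16 h, and AL mice fed ad libitum, each regimen lasting 3 months, with 5 libraries per group. The labels name no allele and no drug in any group. Neither the hour of collection nor the time since the last meal is stated in the labels. Whether 1 mouse gave 1 library is not stated either, so the p-values measure library-to-library spread alone, some of which may be technical.

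Macroautophagy encloses parts of the cytoplasm in a double membrane, the autophagosome, which then fuses with lysosomes. The ULK1 kinase starts the process, WIPI proteins bind the lipid that marks the growing membrane, and ATG8 proteins of the LC3 and GABARAP branches are attached to that membrane, where they bind cargo receptors. In liver, autophagy is known to supply amino acids and lipids during fasting and to remove damaged mitochondria and endoplasmic reticulum. A transcript level is not a measure of autophagic flux: several of these proteins, the ATG8 proteins and the SQSTM1 protein among them, are themselves broken down in the lysosome.

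Promoter windows of 4 members are shown because they hold the letters of a motif searched for. Each window is 300 bases of RefSeq sequence on GRCm38.p6, the assembly that mm10 represents, with 250 bases before the start site and 50 after, read on the strand of the gene, and the capitals mark the motif.
Gabarapl1, chr6:129532942-129533241, plus strand, capitals TAAACA: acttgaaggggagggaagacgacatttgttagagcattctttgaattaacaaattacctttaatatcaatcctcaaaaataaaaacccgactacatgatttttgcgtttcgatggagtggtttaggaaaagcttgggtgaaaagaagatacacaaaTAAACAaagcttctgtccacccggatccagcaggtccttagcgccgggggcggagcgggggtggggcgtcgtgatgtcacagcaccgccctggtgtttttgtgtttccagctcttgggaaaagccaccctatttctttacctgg
Map1lc3b, chr8:121590188-121590487, plus strand, capitals TGACNNNGC: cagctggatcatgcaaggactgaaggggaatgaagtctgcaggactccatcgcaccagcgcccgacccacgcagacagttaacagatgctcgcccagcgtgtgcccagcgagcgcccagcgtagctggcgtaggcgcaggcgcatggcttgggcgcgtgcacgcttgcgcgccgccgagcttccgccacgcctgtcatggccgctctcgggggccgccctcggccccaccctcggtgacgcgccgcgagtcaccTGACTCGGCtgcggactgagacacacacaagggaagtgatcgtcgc
Bnip3, chr7:138909457-138909756, minus strand, capitals CACGTG: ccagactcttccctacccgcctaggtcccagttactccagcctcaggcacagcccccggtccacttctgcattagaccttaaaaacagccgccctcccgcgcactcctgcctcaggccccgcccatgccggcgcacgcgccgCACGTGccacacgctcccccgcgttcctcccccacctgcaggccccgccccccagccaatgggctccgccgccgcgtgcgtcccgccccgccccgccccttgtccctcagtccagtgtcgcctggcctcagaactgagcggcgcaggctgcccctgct
Fam134b (Retreg1 in RefSeq), chr15:25843048-25843347, plus strand, capitals TGACGTCA: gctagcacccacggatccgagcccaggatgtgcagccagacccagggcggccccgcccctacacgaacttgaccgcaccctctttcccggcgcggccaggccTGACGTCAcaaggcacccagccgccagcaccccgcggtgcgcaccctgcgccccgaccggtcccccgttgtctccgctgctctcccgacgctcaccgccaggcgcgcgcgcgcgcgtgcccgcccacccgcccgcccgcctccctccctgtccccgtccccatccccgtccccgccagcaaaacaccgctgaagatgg

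The Gabarapl1 window held TAAACA, the core of forkhead factor sites, 94 bases before the start site, as did 13.4% of 32851 promoter windows in the same collection. The Map1lc3b window held TGACNNNGC, the antioxidant response element bound by NRF2, beginning 4 bases after the start site (12.4% of all windows). In the Bnip3 window the E-box CACGTG lay 108 bases before the start site (7.15% of all windows), and in that of Fam134b the cyclic AMP response element TGACGTCA lay 148 bases before it (1.79% of all windows). RefSeq lists 4 windows for Fam134b, of which the one nearest to the deposited gene start was searched and is shown. The start sites used for Gabarap and Wipi1 lay 227 and 578 bases inside the deposited gene bounds. Most of the Gabarap window and all of the Wipi1 window were therefore within the deposited gene, not before it. The longer GTCACGTG of lysosomal and autophagy genes (2.25% of all windows), the forkhead site GTAAACA (3.65%) and the DR1 direct repeat bound by PPAR receptors (0.0396%) matched none of the 9 members with a window. Every motif was searched on both strands, and the windows of Gabarap, Gabarapl2, Sqstm1, Ulk1 and Wipi1 matched none of them. TAAACA was added after GTAAACA had matched no member, it lies within GTAAACA, and CACGTG lies within GTCACGTG.

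Libraries held 28129883 to 38147534 counts, and the lowest member level in any library (7.55 CPM, counts-per-million scaled by the TMM method) stood far above the 0.107 CPM that a floor of 3 counts allows. Hepatocyte transcripts were present in every library, with Alb at 31300 to 41200 FPKM (a level scaled by gene length and library total) in EOD, 34900 to 47100 in IF16 and 27700 to 36900 in AL. AL replicates 4 and 5 stood apart by 11 acute phase genes, which together reached 20600 and 33900 CPM there and 5070 to 5160 CPM in the other AL libraries. Mitochondrially encoded transcripts took 5.34% to 10.1% of the counts in EOD, 8.98% to 11.5% in IF16 and 10.01% to 15.1% in AL. The upper end in EOD was replicate 5 and the upper end in AL was replicate 2, and these libraries also held the lowest EOD value of 7 members and the lowest AL value of 6 members. Results are therefore also given without these libraries where a call or a value turned on them.

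**Figure D1:**
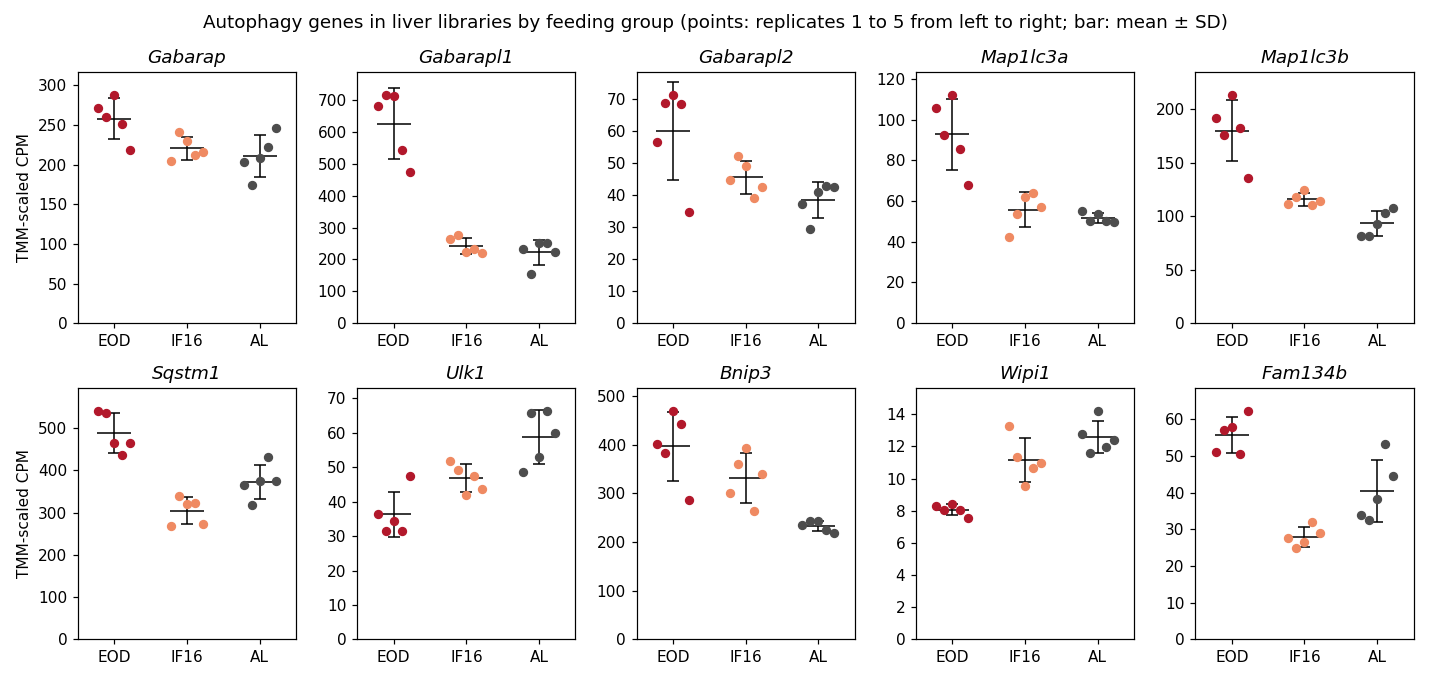
TMM-scaled CPM of each gene (y axes, linear, from 0) in the EOD, IF16 and AL libraries (x axes), with 1 point per library and the mean ± SD of 5 libraries. Gabarapl1 stands at 474 to 717 CPM in EOD, above all IF16 and AL libraries, whereas Ulk1 and Wipi1 are lowest in EOD and Fam134b is lowest in IF16.

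Under every-other-day fasting, all 5 ATG8 genes and all 3 receptor genes were higher than in ad libitum liver, whereas the 2 genes acting earlier, Ulk1 and Wipi1, were lower. Thus 8 of 10 members rose and 2 fell between EOD and AL, where 35.2% of all tested genes were called, 17.6% higher and 17.6% lower. The median log2 fold change of the members was 0.55, against -0.01 over all tested genes. The members were chosen with earlier results of these data known, so the counts and medians here do not test them as a set. The EOD and AL libraries did not overlap for 7 members, 5 with EOD higher and 2 with EOD lower, as for 8.46% and 10.2% of all tested genes. Under 16-h fasting only 2 members passed: Bnip3 rose and Fam134b fell relative to AL, where 3.5% of all tested genes were called (1.4% higher and 2.1% lower), and the members' median log2 fold change was 0.08. The IF16 libraries lay wholly above the AL libraries for Map1lc3b and Bnip3 and wholly below them for Fam134b, as for 2.59% and 3.19% of all tested genes. Between EOD and IF16, 5 members rose and 2 fell, against 7.96% and 8.15% of all tested genes (16.1% in all), with a median log2 fold change of 0.52 for the members. Here 5 members did not overlap with EOD higher and 1 with EOD lower, against 4.63% and 6.26% of all tested genes. Each comparison used edgeR's quasi-likelihood test with Benjamini-Hochberg adjustment over all tested genes, and a gene is said to rise or fall at an adjusted p under 0.05. The EOD and IF16 differences from AL share the AL libraries.

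**Figure D2:**
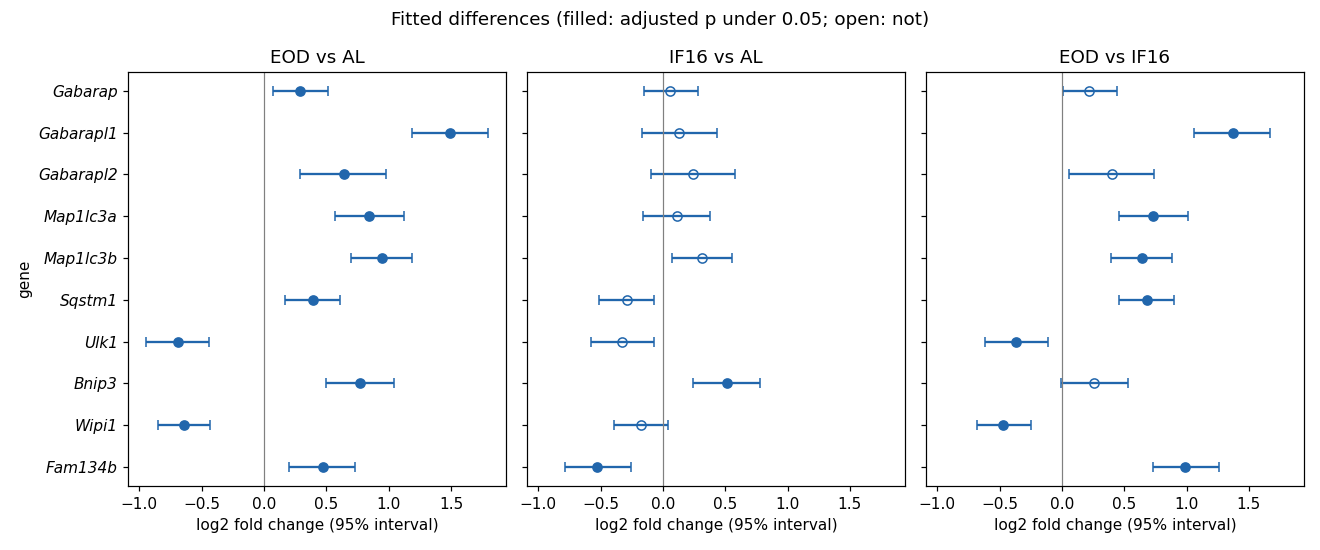
Fitted log2 fold changes (x axes) of the 10 genes (rows) with 95% intervals for EOD vs AL, IF16 vs AL and EOD vs IF16, filled where the adjusted p was under 0.05. All 10 intervals for EOD vs AL exclude 0, with 8 above it and 2 below it, while in IF16 vs AL filled points are seen for Bnip3 above 0 and Fam134b below 0.

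Ulk1, the kinase that starts autophagosome formation, lay on chromosome 5 (110784488 to 110810097, mm10, minus strand). Its level was 36.5, 31.6, 34.5, 31.5 and 47.5 CPM in EOD replicates 1 to 5, 51.7, 49.3, 42.0, 47.5 and 43.7 CPM in IF16 replicates 1 to 5, and 48.8, 65.8, 53.1, 66.4 and 59.96 CPM in AL replicates 1 to 5. All EOD libraries were below all AL libraries, with EOD replicate 5 the nearest to them, and the IF16 libraries overlapped both groups. Ulk1 fell 1.62-fold in EOD relative to AL (log2 fold change -0.69, SE 0.12, adjusted p = 0.000385). Relative to IF16 it fell 1.29-fold (log2 fold change -0.37, SE 0.12, adjusted p = 0.0466), a call at the edge of the threshold that 19 of 27 alternatives ended (adjusted p 0.00289 to 0.133 over the alternatives). Among them were the removal of AL replicate 3 or 5, of any IF16 library or of EOD replicate 1, 2, 3 or 4. In IF16 its log2 fold change from AL was -0.33 (SE 0.12, adjusted p = 0.149).

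Wipi1 encodes a WD-repeat protein that binds phosphatidylinositol 3-phosphate on the forming autophagosome (chromosome 11, 109573331 to 109611967, minus strand). It was the least abundant member, at 8.29, 8.05, 8.42, 8.05 and 7.55 CPM in EOD, 13.3, 11.3, 9.53, 10.6 and 10.99 CPM in IF16, and 12.8, 11.6, 14.2, 11.96 and 12.4 CPM in AL. The 5 EOD libraries lay within a narrow band below every IF16 and AL library. Wipi1 fell 1.56-fold in EOD relative to AL (log2 fold change -0.64, SE 0.1, adjusted p = 0.000164) and 1.38-fold relative to IF16 (log2 fold change -0.47, SE 0.1, adjusted p = 0.00548). Between IF16 and AL the log2 fold change was -0.18 (SE 0.1, adjusted p = 0.373).

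Of the ATG8 genes, Gabarapl1, a GABARAP-branch gene on chromosome 6 (129533200 to 129542331, plus strand), differed most in EOD from both other groups. Its level was 683, 717, 714, 545 and 474 CPM in EOD replicates 1 to 5, 264, 276, 224, 232 and 219 CPM in IF16 replicates 1 to 5, and 232, 156, 251, 251 and 223 CPM in AL replicates 1 to 5. Every EOD library, replicate 5 included, was above every library of the other groups, and IF16 and AL overlapped. Gabarapl1 rose 2.82-fold in EOD relative to AL (log2 fold change 1.49, SE 0.14, adjusted p = 1.84e-06) and 2.58-fold relative to IF16 (log2 fold change 1.37, SE 0.14, adjusted p = 1.72e-05). In IF16 it differed from AL by a log2 fold change of 0.13, with a 95% interval from -0.17 to 0.43 (adjusted p = 0.69). Its window above held the forkhead core, a description of the letters only.

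Map1lc3b, which encodes the LC3B protein used as the common marker of autophagosomes, lay on chromosome 8 (121590361 to 121598760, plus strand). It stood at 192, 176, 214, 182 and 135 CPM in EOD, at 112, 118, 125, 110.4 and 114 CPM in IF16, and at 81.4, 81.6, 93.1, 103 and 108 CPM in AL. The 3 groups did not overlap one another, with EOD highest and AL lowest. Map1lc3b rose 1.93-fold in EOD relative to AL (log2 fold change 0.95, SE 0.12, adjusted p = 1.64e-05) and 1.55-fold relative to IF16 (log2 fold change 0.64, SE 0.12, adjusted p = 0.00156). In IF16 the log2 fold change from AL was 0.31 (SE 0.12), and although the groups did not overlap the gene did not pass (adjusted p = 0.151).

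Map1lc3a, the other LC3 gene (chromosome 2, 155276297 to 155278073, plus strand), was at 106, 92.5, 112, 85.7 and 67.9 CPM in EOD, 42.4, 53.5, 62.2, 63.9 and 57.1 CPM in IF16, and 49.8 to 55.1 CPM in AL. Here too EOD lay above both other groups and IF16 overlapped AL. It rose 1.8-fold in EOD relative to AL (log2 fold change 0.84, SE 0.13, adjusted p = 0.00013) and 1.66-fold relative to IF16 (log2 fold change 0.73, SE 0.13, adjusted p = 0.00129). Its log2 fold change between IF16 and AL was 0.11 (SE 0.13, adjusted p = 0.708).

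Gabarapl2, also known as GATE-16 (chromosome 8, 111940703 to 111953612, plus strand), stood at 56.4 to 71.3 CPM in EOD replicates 1 to 4 and at 34.7 CPM in EOD replicate 5. The IF16 libraries were at 39.1 to 52.2 CPM and the AL libraries at 29.3 to 42.8 CPM, so that EOD replicate 5 lay below all IF16 libraries and among the AL libraries. Gabarapl2 rose 1.55-fold in EOD relative to AL (log2 fold change 0.64, SE 0.16, adjusted p = 0.00622). Against IF16 it did not pass (log2 fold change 0.4, SE 0.16, adjusted p = 0.102), but it did without EOD replicate 5 (log2 fold change 0.57, adjusted p = 0.00305; 0.000794 to 0.213 over the alternatives). Between IF16 and AL its log2 fold change was 0.24 (SE 0.16, adjusted p = 0.47).

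Gabarap (chromosome 11, 69991143 to 69994951, plus strand), the founding gene of its branch, showed the smallest difference of the family in EOD. It ranged from 219 to 288 CPM in EOD, from 205 to 241 CPM in IF16 and from 175 to 246 CPM in AL, and all 3 groups overlapped. It rose 1.22-fold in EOD relative to AL (log2 fold change 0.29, SE 0.1, adjusted p = 0.0367). This call ended without AL replicate 1, 2 or 3 or EOD replicate 1, 2 or 3, and in 9 of 27 alternatives in all (adjusted p 0.00735 to 0.0948 over the alternatives). The difference between EOD and IF16 did not pass (log2 fold change 0.22, SE 0.1, adjusted p = 0.142) except without EOD replicate 5 (log2 fold change 0.3, adjusted p = 0.0345; 0.0191 to 0.266 over the alternatives), alone or together with AL replicate 2. In IF16 the log2 fold change from AL was 0.06 (SE 0.1, adjusted p = 0.794), and it was -0.01 without AL replicate 2 and EOD replicate 5.

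Because these 5 genes encode members of 1 protein family, their levels per deposited gene length were also set side by side. That length was 4138 bases for Map1lc3b and 1112 to 1765 bases for the others, and the shares depend on it. The summed FPKM of the family was 704 (SD 89.2, range 584 to 777, n = 5) in EOD, 405 (SD 20.3, range 389 to 436, n = 5) in IF16 and 375 (SD 37.5, range 308 to 397, n = 5) in AL. Gabarapl1 made up 49.95% (SD 2.2, n = 5) of that sum in EOD, 33.9% (SD 2.9, n = 5) in IF16 and 33.5% (SD 2.99, n = 5) in AL. Its lowest share in EOD, 47.0%, was above its highest in IF16 (38.1%) and in AL (36.3%). Gabarap held 27.2% (SD 1.84) of the family FPKM in EOD, 40.2% (SD 1.14) in IF16 and 41.8% (SD 2.27) in AL, where it was the most abundant gene of the family. The shares of Map1lc3a (11.7% in EOD, 12.4% in IF16, 12.6% in AL), Map1lc3b (6.14%, 6.89% and 6.04% in the same order) and Gabarapl2 (5.0%, 6.66% and 6.12%) had overlapping ranges among all groups. The shares are a description of these libraries and were not tested.

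**Figure D3:**
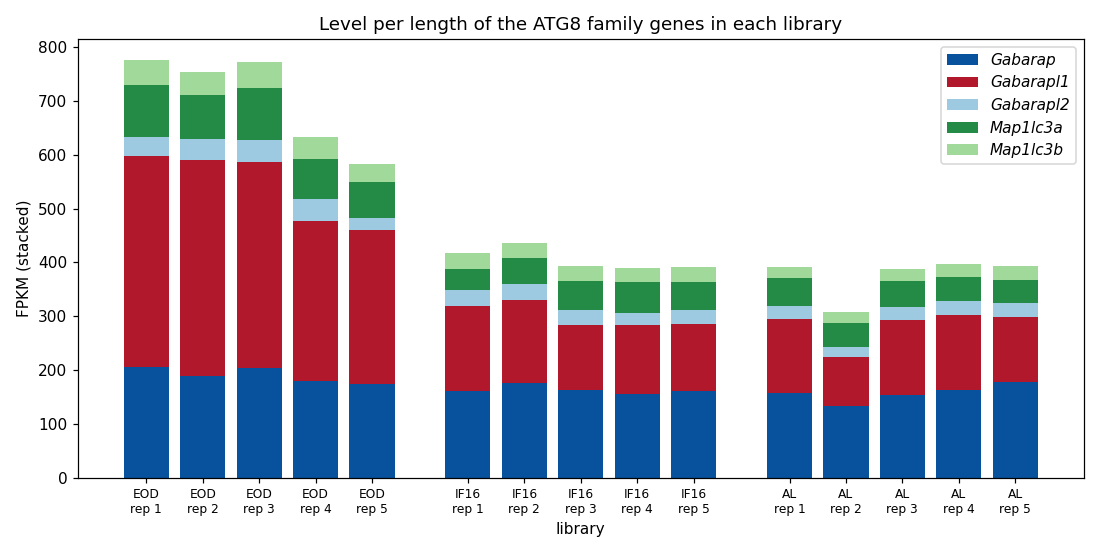
Stacked FPKM (y axis, level per gene length and library size) of the 5 ATG8 family genes in each of the 15 libraries (x axis). The EOD bars reach 584 to 777 FPKM against at most 436 in the other libraries, and the Gabarapl1 segment makes up 47.0% to 53.1% of each EOD bar.

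Sqstm1 encodes p62, the receptor that joins ubiquitin-tagged cargo to ATG8 proteins and is itself a target of NRF2 (chromosome 11, 50199366 to 50210827, minus strand). It measured 541, 536, 465, 437 and 464 CPM in EOD, 269, 339, 321, 322 and 274 CPM in IF16, and 366, 317, 374, 431 and 375 CPM in AL. The EOD libraries were above all others, with EOD replicate 4 only just above AL replicate 4, the highest AL library. Sqstm1 rose 1.31-fold in EOD relative to AL (log2 fold change 0.39, SE 0.11, adjusted p = 0.00835) and 1.6-fold relative to IF16 (log2 fold change 0.68, SE 0.11, adjusted p = 0.000423). Between IF16 and AL its fitted difference had the other sign, a log2 fold change of -0.29 with a 95% interval from -0.51 to -0.07, but it did not pass (adjusted p = 0.14; 0.0565 to 0.422 over the alternatives).

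Bnip3, a receptor of the outer mitochondrial membrane through which mitochondria are delivered to autophagosomes (chromosome 7, 138890836 to 138909519, minus strand), was the member that rose in both fasting regimens. Its level was 401, 383, 469, 443 and 286 CPM in EOD, 299.9, 360.0, 394, 264 and 339 CPM in IF16, and 236, 243, 243, 224 and 218 CPM in AL. All libraries of both fasting groups were above all AL libraries, and EOD overlapped IF16. Bnip3 rose 1.7-fold in EOD relative to AL (log2 fold change 0.77, SE 0.13, adjusted p = 0.000271) and 1.42-fold in IF16 relative to AL (log2 fold change 0.51, SE 0.13, adjusted p = 0.0341). Leaving out any AL library but replicate 2, or IF16 replicate 2, 3 or 5, ended the IF16 call (adjusted p 0.00586 to 0.138 over the alternatives), and without AL replicates 4 and 5 together the log2 fold change was 0.47 (adjusted p = 0.138). Between EOD and IF16 the log2 fold change was 0.26 (SE 0.13, adjusted p = 0.178), and 0.38 without EOD replicate 5 (adjusted p = 0.0197; 0.0197 to 0.347 over the alternatives).

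Fam134b, now named Retreg1, encodes a receptor that bends and fragments the endoplasmic reticulum for its uptake into autophagosomes (chromosome 15, 25843264 to 25973687, plus strand). It measured 51.2, 57.2, 57.9, 50.6 and 62.3 CPM in EOD, 27.6, 24.8, 26.7, 32.0 and 29.1 CPM in IF16, and 33.8, 32.5, 38.2, 53.3 and 44.4 CPM in AL. All IF16 libraries were below all AL and EOD libraries, and among the AL libraries only replicate 4 reached into the EOD range. Fam134b rose 1.99-fold in EOD relative to IF16 (log2 fold change 0.99, SE 0.13, adjusted p = 8.17e-05), a call that was kept in all 27 alternatives. Relative to AL it rose 1.38-fold in EOD (log2 fold change 0.47, SE 0.12, adjusted p = 0.00823) and fell 1.44-fold in IF16 (log2 fold change -0.53, SE 0.13, adjusted p = 0.0253).

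The AL libraries with high acute phase transcripts held the highest AL values of Fam134b. Without AL replicates 4 and 5 the log2 fold change between IF16 and AL was -0.31 (adjusted p = 0.159), and that between EOD and AL was 0.71, its highest over the alternatives (adjusted p 0.000317 to 0.0367). Its IF16 call also ended without AL replicate 4 (log2 fold change -0.41, adjusted p = 0.0618) or 5, or without IF16 replicate 2, 3 or 5 (adjusted p 0.00418 to 0.159 over the alternatives). The part of the acute phase state in these values was not tested.

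In FPKM, which corrects for gene length, the order of the members differed among the groups. In EOD the mean level was highest for Gabarapl1 at 353 FPKM (SD 55.1), followed by Bnip3 at 224 (SD 31.2), Gabarap at 190.1 (SD 13.9) and Sqstm1 at 183 FPKM (SD 20.5), n = 5 each. Gabarapl1 did not overlap Bnip3 there, whereas Bnip3, Gabarap and Sqstm1 overlapped their neighbours. In IF16 the order began with Bnip3 at 188 FPKM (SD 25.4), Gabarap at 163 (SD 7.69), Gabarapl1 at 138 (SD 17.4) and Sqstm1 at 114 (SD 8.85), and in AL with Gabarap at 157 (SD 16.0), Sqstm1 at 139.8 (SD 13.3), Bnip3 at 133 (SD 9.48) and Gabarapl1 at 126 (SD 21.2), all neighbours overlapping. Map1lc3a came next in every group, at 82.9 FPKM in EOD, 49.9 in IF16 and 46.7 in AL, without overlap with the gene before it. Map1lc3b (43.2, 27.9 and 22.6 FPKM in EOD, IF16 and AL) and Gabarapl2 (35.3, 27.1 and 23.0 FPKM) followed and overlapped each other in every group. Fam134b was at 17.6 FPKM in EOD, 8.85 in IF16 and 12.8 in AL, and Ulk1 at 7.0 FPKM in EOD, 8.99 in IF16 and 11.3 in AL, the pair overlapping in IF16 and AL but not in EOD. Wipi1 was last in every group, at 2.41 FPKM in EOD, 3.35 in IF16 and 3.79 in AL.

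The wider machinery was read from 63 other autophagy genes in 7 groups by role, of which 62 were tested. Between EOD and AL, 12 of them rose (19.4%) and 10 fell (16.1%), shares near the 17.6% of all tested genes that moved in each direction, and their median log2 fold change was 0.03. Between EOD and IF16, 8 rose (12.9%) and 2 fell (3.23%), against 7.96% and 8.15% of all tested genes, with a median log2 fold change of 0.02. The 10 called were 3, 5 and 4 without EOD replicate 1, 2 or 3, 6 without IF16 replicate 5 and 21 without EOD replicate 5. Between IF16 and AL none of the 62 passed in edgeR's fit of all 15 libraries, with 11 at an unadjusted p under 0.05. There 1 passed with DESeq2 and 0 with limma on FPKM, and with edgeR 1 passed when IF16 replicate 4 or EOD replicate 5 was left out or the 2 groups were fitted alone.

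Among the initiation genes, Atg101 rose 1.31-fold in EOD relative to AL (adjusted p = 0.0161) and Rb1cc1, which encodes the scaffold FIP200, rose 1.22-fold (adjusted p = 0.0231), 2 of 4 tested, while Ulk1 fell. The call of Rb1cc1 ended without AL replicate 2 (highest adjusted p 0.0594), and that of Atg101 without AL replicates 4 and 5 together (adjusted p = 0.0502). Of the 8 genes of the phosphatidylinositol 3-kinase complex, Becn1 (Beclin 1) and Nrbf2 rose 1.32-fold and 1.39-fold (adjusted p = 0.0248 and 0.0365). Ambra1, a regulator of the complex, fell 1.3-fold (adjusted p = 0.00726). The call of Becn1 ended without AL replicate 2 or 3 or EOD replicate 1 or 3, and that of Nrbf2 without AL replicate 2 or 4 or EOD replicate 1, 2 or 3. Over the alternatives their adjusted p reached 0.071 and 0.116.

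Of 9 genes of membrane growth, 1 rose (11.1%) and 2 fell (22.2%) in EOD relative to AL, against 17.6% of all tested genes in each direction. Atg2a, a lipid transfer protein that works with WIPI proteins, fell 1.54-fold from AL, at 29.98 CPM in EOD and 46.1 CPM in AL (adjusted p = 0.000614). Tmem41b, a lipid scramblase of the endoplasmic reticulum, fell 1.54-fold (adjusted p = 0.000364), and Zfyve1, the marker DFCP1 of the membrane sites where autophagosomes form, rose 1.4-fold (adjusted p = 0.00753). In the conjugation system that attaches ATG8 proteins to lipid, 2 of 11 genes rose and 2 fell (18.2% each). The ubiquitin-like Atg12 rose 1.7-fold (35.1 CPM in EOD, 20.6 CPM in AL, adjusted p = 0.00109) and the ATG8 protease gene Atg4d 1.75-fold (adjusted p = 0.00106), whereas Atg7, the activating enzyme of both ATG8 and ATG12, fell 1.41-fold (adjusted p = 0.00103). Atg12 and Atg4d were also higher in EOD than in IF16, by 1.58-fold and 1.5-fold (adjusted p = 0.00832 and 0.0195), as was the protease gene Atg4b by 1.27-fold (adjusted p = 0.0214). The calls of Atg4d and Atg4b against IF16 ended without EOD replicate 1 or 3, and that of Atg4b also without EOD replicate 2 or IF16 replicate 3 (adjusted p up to 0.0604 and 0.0562 over the alternatives).

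Among the other receptors of mitochondria, Fundc1 rose 1.76-fold relative to AL (10.2 CPM in EOD, 5.8 CPM in AL, adjusted p = 0.00028), and Bnip3l, which encodes the Bnip3 homolog NIX, rose 1.49-fold (adjusted p = 0.0017). Fkbp8 and Bcl2l13, also receptors of mitochondria, did not pass (log2 fold changes -0.06 and 0.37, adjusted p = 0.679 and 0.0702). Tax1bp1, a ubiquitin-binding receptor like Sqstm1, fell 1.34-fold (adjusted p = 0.00166). In all, 4 of 15 tested receptor genes rose (26.7%) and 2 fell (13.3%) between EOD and AL, against 17.6% of all tested genes in each direction. Relative to IF16, 3 rose in EOD: Rtn3, another receptor of the endoplasmic reticulum, 1.23-fold (adjusted p = 0.0157), Stbd1, a glycogen-binding receptor, 1.41-fold (adjusted p = 0.0293) and Fundc1 1.35-fold (adjusted p = 0.0388). The Stbd1 call ended when IF16 replicate 1 or 5 or EOD replicate 1, 2 or 3 was left out (highest adjusted p 0.0815). That of Fundc1 ended when IF16 replicate 1, 4 or 5 or any EOD library but replicate 5 was left out (highest adjusted p 0.0984).

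Of the 8 fusion genes, Vamp8, the lysosomal SNARE, rose 1.4-fold in EOD relative to AL (adjusted p = 0.00104), and the tethering genes Epg5 and Tecpr1 fell 1.62-fold and 1.63-fold (adjusted p = 0.000763 and 0.027). The call of Tecpr1 was lost when AL replicate 2 or any EOD library but replicate 5 was left out (highest adjusted p 0.0945). The log2 fold change of Epg5 ranged from -0.86 to -0.39 over all 27 alternatives, with the call kept. Relative to IF16, Nrbf2 rose 1.57-fold (adjusted p = 0.0149) and Atg101 1.31-fold (adjusted p = 0.0304), while Epg5 fell 1.32-fold (adjusted p = 0.0495), a call kept in 5 of 27 alternatives. The call of Nrbf2 ended without EOD replicate 1 and that of Atg101 without IF16 replicate 1, 3 or 5 or EOD replicate 1, 2 or 3, the highest adjusted p being 0.0509 and 0.0888. Of 7 transcription factor genes, 1 fell (14.3%) and 0 rose in EOD relative to AL, against the same 17.6% in each direction. Foxo3, a forkhead activator of autophagy genes, fell 1.77-fold (27.97 CPM in EOD, 49.6 CPM in AL, adjusted p = 0.00043). It also fell 1.48-fold relative to IF16 (adjusted p = 0.0143), a call that ended with limma on log2(FPKM + 1) without a filter (adjusted p = 0.0535). Tfeb, Tfe3, Mitf, Foxo1, Foxo4 and Zkscan3 did not pass in any of the 3 comparisons.

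**Figure D4:**
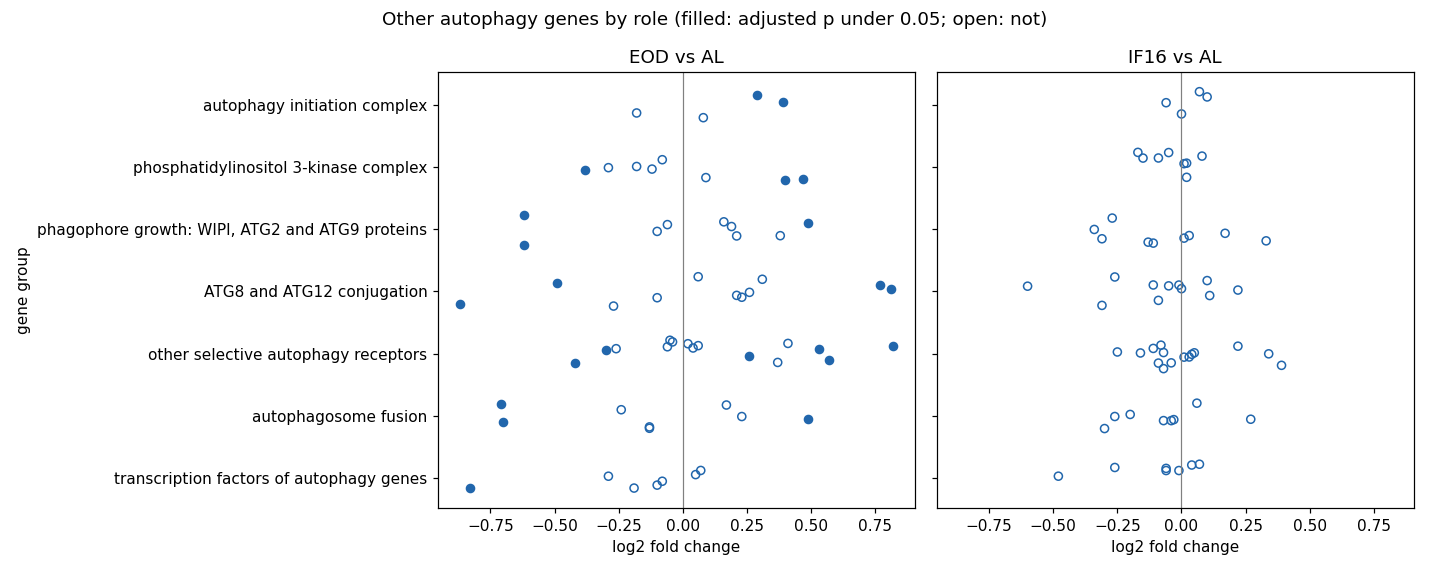
Log2 fold changes (x axes) of the 62 other autophagy genes tested, by role (rows), for EOD vs AL and IF16 vs AL, filled at an adjusted p under 0.05. Filled points lie on both sides of 0 in EOD vs AL, 12 above and 10 below, and there is none in IF16 vs AL.

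In bulk liver, more RNA per cell and a larger share of cells with the RNA cannot be told apart. Markers of sinusoidal endothelium moved with the fasting groups: 6 of 8 (75.0%) rose in EOD and 5 of 8 (62.5%) in IF16 relative to AL. Of all tested genes, 17.6% rose and 17.6% fell in EOD, and 1.4% rose in IF16. The endothelial markers summed to 189 to 233 CPM in EOD, 201 to 220 CPM in IF16 and 96.9 to 167 CPM in AL. The lowest AL sums were those of replicates 4 and 5 (110 and 96.9 CPM). Stellate cell markers were at 234 to 322 CPM in EOD, 178 to 235 CPM in IF16 and 135 to 230 CPM in AL, with 4 of 8 risen and 1 fallen in EOD relative to AL. Kupffer cell and macrophage markers summed to 122 to 295 CPM in EOD, 115 to 346 CPM in IF16 and 85.8 to 219 CPM in AL, with 1 of 8 risen in EOD. The 10 hepatocyte markers summed to 93300 to 123000 CPM in EOD, 112000 to 142000 CPM in IF16 and 93500 to 114000 CPM in AL. Neutrophil markers summed to 1.95 to 5.67 CPM in EOD, 2.81 to 3.85 CPM in IF16 and 2.6 to 33.6 CPM in AL, with Mpo at 0 in EOD and IF16 and Ly6g at 0 in EOD. Adipocyte markers summed to 0.431 to 1.49 CPM in EOD, 0.296 to 1.54 CPM in IF16 and 1.0 to 11.4 CPM in AL. AL replicates 4 and 5 held the highest AL neutrophil sums (33.6 and 31.7 CPM, the others 2.6 to 3.8 CPM). They also held the lowest AL adipocyte sums (1.0 and 1.05 CPM, the others 7.84 to 11.4 CPM). Cholangiocyte, lymphocyte and red cell markers had overlapping sums in all groups. No marker of the endothelial, stellate, Kupffer cell or hepatocyte list was at 0 in a whole group, and the part of these lists in the members' levels was not tested. Leaving the mitochondrially encoded genes out of the table left 10 members called between EOD and AL, 2 between IF16 and AL and 6 between EOD and IF16, where Ulk1 no longer passed (adjusted p = 0.053; 0.00289 to 0.133 over the alternatives).

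Genes with the most similar profiles were sought among 10804 other protein-coding genes (mean of at least 1 CPM, no predicted or RIKEN symbols) by Pearson's r of log2 CPM over the 15 libraries, which share group and depth, so that r describes likeness and nothing more. Gabarapl1 was most like Psmd9 (r = 0.981), which encodes a proteasome assembly chaperone, and Degs1 (r = 0.972), which encodes a ceramide-making desaturase. Map1lc3b was most like the ribosomal protein gene Rpl10a (r = 0.984) and Scarb2 (r = 0.976), which encodes the lysosomal membrane protein LIMP-2. For Bnip3 the nearest were Mlycd (r = 0.959), the gene of malonyl-CoA decarboxylase, and Eif4a2 (r = 0.957), and for Sqstm1 they were Ccni (r = 0.94) and Pnp (r = 0.938). Ulk1 was nearest to Vav2 (r = 0.955) and Pyroxd2 (r = 0.949), and Wipi1 to the polyamine oxidase gene Paox (r = 0.955) and to Dpy19l3 (r = 0.951), all of which had their lowest mean in EOD and their highest in AL. Fam134b had the weakest matches, Lrrfip1 (r = 0.918) and Abhd2 (r = 0.882). The nearest to Gabarap were Vhl (r = 0.961) and Aven (r = 0.947), to Gabarapl2 Mrpl13 (r = 0.977) and H3f3a (r = 0.972), and to Map1lc3a Tmem11 (r = 0.97) and Ppp2r2d (r = 0.966).

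Sequence copies and neighbours bear on how far counts belong to a member. Pseudogenes at least 95% identical to a member transcript over at least 200 bases were found for Map1lc3b, Gabarapl2 and Bnip3, and those listed in the count table reached at most 1.76 CPM (Gm6055, 99.6% identical to Map1lc3b over 282 bases). Reads shared with such copies could have been assigned either way or dropped. Zcchc14, at 12.1 to 25.9 CPM, overlaps Map1lc3b by 58 bases on the opposite strand. Gm20388, a protein-coding gene on the same strand, overlaps all 8400 bases of Map1lc3b and was at 0 CPM in every library, so that reads of the shared bases could have been dropped as ambiguous or assigned to Map1lc3b, which bears on its FPKM, its rank and its share of the family. On the opposite strand, 3010026O09Rik (Mrnip), at 1.41 to 4.81 CPM, overlaps Sqstm1 by 750 bases. No source used here gives the strand setting of the counting, so the reads of these overlaps cannot be assigned to either gene with certainty.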

How the data were processed

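The authors deposited raw counts per Ensembl gene and FPKM per library. STAR 2.5, HTSeq 0.6.1, DESeq2 and mm10 stand in the submitters' processing notes with no role given, and per the labels' protocols messenger RNA was selected with poly-T beads. The deposited FPKM equalled the count scaled by gene length and library total in 100% of values (relative tolerance 1e-06). Coordinates are those of the deposited table. In R 4.3.3, edgeR 4.0.16 kept genes by filterByExpr (minimum count 10), scaled by TMM, and fitted all 15 libraries with a mean per group (glmQLFit, robust). Each pair of groups was tested by glmQLFTest with Benjamini-Hochberg adjustment at 0.05. The SE is the log2 fold change over the square root of F. The common biological coefficient of variation was 0.211. Alternatives used DESeq2 1.42.0, limma 3.58.1 on log2 of FPKM plus 1 or 0.1, other filters, a replicate block, and left-out libraries; 2 were added after the data were seen. No pair of libraries within a group was a duplicate (chi-square of the counts 25.1 to 221 per degree of freedom, 30 pairs). Intervals cover the fitted spread. All members are named, and of other autophagy genes up to 3 per group and comparison with the smallest p, besides some that did not pass. Members, lists and tests were chosen with earlier results of these data known. RefSeq symbols for 9 members gave promoters. Near-identical transcripts were sought with blastn in GENCODE M21.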

Additional observations from a re-analysis of the deposited data

How the results depend on the processing

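The 30 member differences were refitted under 27 alternatives each. Direction and side of the threshold were kept throughout for 22 of them; over the 810 refits 44 lost the call, 6 gained it and 1 changed sign, that of Gabarap between IF16 and AL (log2 fold change -0.01 without AL replicate 2 and EOD replicate 5, a pair chosen after seeing the data). The number of members called was 9 to 10 between EOD and AL and 6 to 10 between EOD and IF16. Between IF16 and AL it was 2, but 0 without AL replicates 4 and 5, 0 with limma on log2(FPKM + 1) without a filter, and 0 to 2 when 1 library was left out. Of all genes, 484 differed between IF16 and AL, 939 with the DESeq2 Wald test, 261 with limma without a filter and 241 to 619 without 1 library. Between EOD and IF16 it was 2229, 3733 without AL replicate 2 and EOD replicate 5 together, and 1418 to 3383 without 1 library. Of the 62 other autophagy genes, 0 passed between IF16 and AL, 1 with DESeq2 (Atg7, log2 fold change -0.31), 1 with the 2 groups alone and 0 to 1 without 1 library. Between EOD and IF16 10 passed, 6 without a filter, 24 without AL replicate 2 and EOD replicate 5, and 3 to 21 without 1 library. Some of the alternatives also had fewer samples or another number of genes in the fit. The cause of these changes was not tested.

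The labels do not say whether the replicate numbers shared by the groups mark pairs. The deviations of same-numbered libraries correlated at -0.13 to 0.218, with 5 of 15 pairs over 0.1. Number 1 gave 0.218 for IF16 and AL, 0.184 for EOD and AL and 0.111 for EOD and IF16. In 3 of the 15 pairs the library of the group named first correlated best with its own number in the other group. These correlations cannot decide whether the numbers mark a shared animal, day or batch. With the replicate number as a block, 4809 genes were called between EOD and AL, 492 between IF16 and AL and 2226 between EOD and IF16. Members called were 9, 2 and 6 in the same order, the block leaving out Gabarap between EOD and AL (adjusted p = 0.0592) and Ulk1 between EOD and IF16 (adjusted p = 0.0573). All members had 7.55 CPM or more in every library, and whether depth or the number of libraries limits the calls was not tested.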
